A study of Danio rerio with 12 samples.

Results

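Wild-type zebrafish embryos held in 50 µg/L methylmercury (MeHg) from 4 to 72 h after fertilisation were compared with wild-type embryos held for the same hours without it. The comparison took all genes of 6 of the 12 libraries in the series, 3 of exposed embryos and 3 of controls. Of 32057 genes in the deposited table, 19821 had a mean of at least 0.5 FPKM (fragments scaled by gene length and library total) over the 12 libraries and were tested. The 3 libraries at 30 µg/L served as a further reference for the exposed group, and those at 6 µg/L are given only as levels. Poly(A) RNA of whole embryos was sequenced. The sources used here do not give the strain, the number of embryos in a sample and do not say whether the replicates were separate clutches or tanks. The p-values thus cover the spread among these libraries alone, and that spread may be technical. All 14 defining markers of neurons, epidermis, muscle, heart, vessels, blood, liver, pancreas, islets, cartilage, neutrophils, hatching gland, photoreceptors and pigment cells had counts in all 6 libraries, as whole embryos should.

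Methylmercury binds the sulfur of thiols and the selenium of selenols, and so reaches glutathione, cysteine-rich proteins and selenoenzymes. Cells meet such electrophiles with metallothioneins that hold metal ions, with glutathione and thioredoxin enzymes switched on by the transcription factor Nrf2, and with heat shock proteins that refold or remove damaged proteins. At the end of the exposure a zebrafish has hatched or is hatching, its muscle and heart beat, its liver and pancreas have formed, and progenitors of the brain and eye still divide. In bulk RNA of whole animals, fewer cells of a type and less RNA per cell cannot be told apart.

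The libraries held 18593766, 17586230 and 20187568 counts in the exposed group and 15784965, 20928762 and 20610418 in controls. The exposed libraries were alike (mean Spearman correlation with each other 0.994). Control replicate 3 stood apart, at 0.927 and 0.944 with control replicates 1 and 2, which correlated at 0.991, and for 2617 genes its level was 2-fold or more away from their mean. It also differed from them in how level followed gene length. The tilt with length, taken as the median log2 deviation from the gene's mean over the 12 libraries in the longest 12.5% of genes minus that in the shortest 12.5%, was 0.045, 0.141 and 0.123 in exposed libraries. In controls it was -0.607 and -0.465 in replicates 1 and 2, but 0.193 in replicate 3. Mitochondrially encoded genes took 3.90%, 3.72% and 3.62% of counts in exposed libraries, against 5.43%, 5.30% and 4.20% in controls. Each result below is given against all 3 controls and was recomputed against control replicates 1 and 2 and against control replicate 3 alone. In the last of these the lone control is assumed to vary like the exposed libraries.

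At 50 µg/L, 1909 genes (9.63%) were higher and 2489 (12.6%) lower than in controls (adjusted p under 0.05 by the quasi-likelihood test of edgeR with Benjamini-Hochberg adjustment). These percentages are the background for gene group counts against all 3 controls. Counts against fewer controls have their own, larger backgrounds, given further on in this paragraph. "Rose" and "fell" are used for genes that passed this test, and changes are log2 fold changes ± SE of exposed over control embryos. Levels are CPM, counts scaled to a common library total. All 1909 higher genes and 2487 of the 2489 lower genes had no overlap between the 3 exposed and 3 control libraries, as had 21.1% (higher) and 23.0% (lower) of all tested genes. Against control replicates 1 and 2, 6189 genes (31.2%) were higher and 6280 (31.7%) lower, and against control replicate 3 alone 4746 (23.9%) and 4954 (25.0%). Of the 1909 higher genes 96.9% also passed against control replicate 3 alone, and of the 2489 lower genes 88.7%. Leaving out other libraries lowered the numbers, to 1234 and 1633 without control replicate 1, 851 and 1319 without control replicate 2, and 654 and 950, 577 and 902, and 569 and 878 without exposed replicates 1, 2 and 3. Of the 223 genes chosen for naming 205 passed against all controls. Most of these were chosen because they passed with no overlap between the groups. Their direction against fewer controls was thus fixed by the choice, and what follows is no separate check. All 205 also passed against control replicates 1 and 2, and all but gh1, nsdhl and sc5d against control replicate 3 alone. Over all genes tested the median log2 fold change was -0.04. Where a group below has 0 members called in a direction against controls by edgeR, an unadjusted p under 0.05 gave 0 as well, except for 4 epidermal, 2 synapse and 1 bone gene higher and 8 mitochondrially encoded genes lower, and DESeq2 gave 0 except for 1 epidermal gene higher and 6 mitochondrially encoded genes lower.

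**Figure D1:**
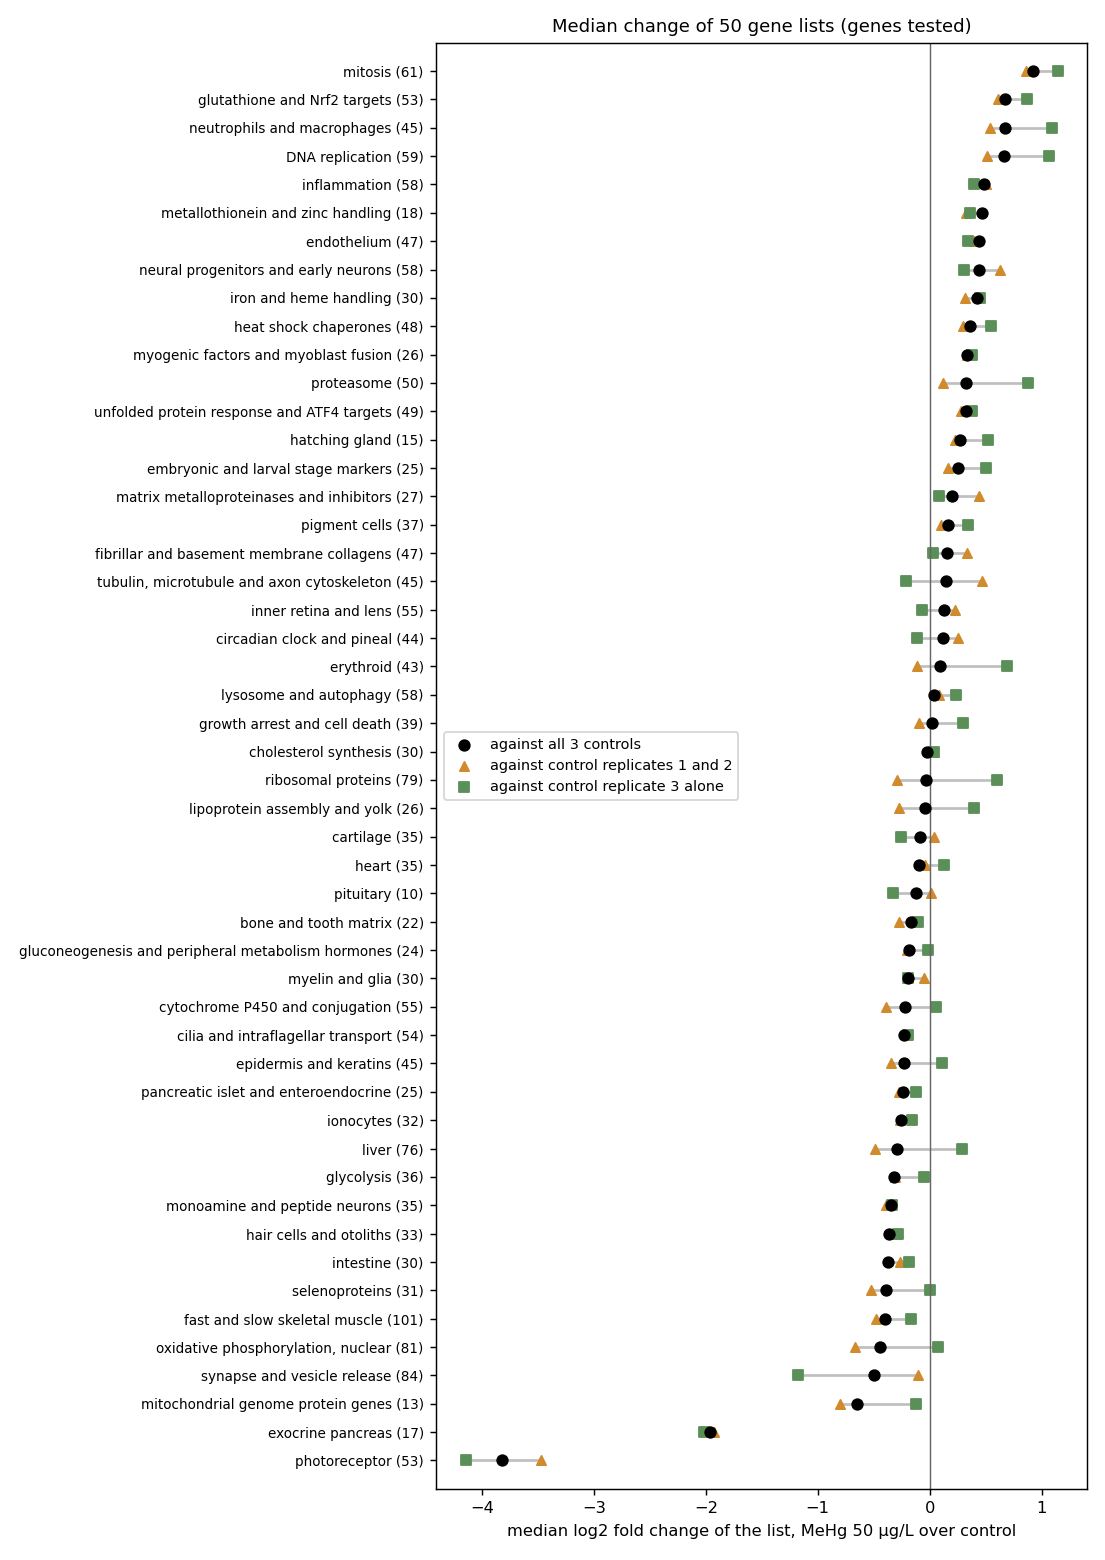
Median log2 fold change of each of 50 gene lists in embryos at 50 µg/L MeHg over controls, with the number of genes tested in parentheses. Circles use all 3 controls, triangles control replicates 1 and 2 and squares control replicate 3 alone; mitosis (medians 0.92, 0.86 and 1.15) and exocrine pancreas (-1.97, -1.92 and -2.02) kept their sign, whereas ribosomal proteins (-0.04, -0.29 and 0.60) and liver (-0.29, -0.48 and 0.29) changed sign.

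Metal-binding genes gave some of the largest rises. The metallothionein gene mt2 (ENSDARG00000041623, chromosome 18, 17534627 to 17535979 in GRCz11), whose cysteine-rich product holds zinc, copper and mercury, had 739.7, 715 and 726 CPM in exposed libraries, against 34.3, 33.3 and 15.7 CPM in controls. Its exposed libraries lay close together and far above every control, and the change was 4.71 ± 0.32 (edgeR, adjusted p = 0.00023). The cell-surface zinc exporter gene slc30a1a had 66.4, 67.9 and 77.0 CPM in exposed libraries, against 28.1, 26.7 and 32.7 CPM in controls (1.27 ± 0.14, adjusted p = 0.0015), and slc30a8, which loads zinc into secretory granules, rose by 1.17 ± 0.20. The other metallothionein gene of the list, mtbl, fell instead, with 5.66, 6.38 and 4.20 CPM in exposed libraries, against 11.7, 14.1 and 8.38 CPM in controls (-1.07 ± 0.25, adjusted p = 0.022). Of this list of zinc transporters and metallothioneins 5 of the 18 members tested rose and 2 fell, and the median was 0.47 (0.32 against control replicates 1 and 2 and 0.36 against control replicate 3 alone).

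Many enzymes of the thiol defence rose, with exceptions. Of the glutathione and Nrf2 target list 24 of the 53 members tested rose and 7 fell (45.3% and 13.2%, against 9.63% and 12.6% of all genes), with a median of 0.68 (0.61 against control replicates 1 and 2 and 0.86 against control replicate 3 alone). The peroxiredoxin gene prdx1 (ENSDARG00000058734, chromosome 2, 6104378 to 6115688), which reduces peroxides with its own cysteines, had 574, 556 and 573 CPM in exposed libraries, against 69.5, 65.2 and 36.6 CPM in controls (3.31 ± 0.26, adjusted p = 0.00036). The glutathione S-transferase gene gstp1 had 2009, 1836 and 1883 CPM in exposed libraries, against 370.2, 329 and 179 CPM in controls (2.71 ± 0.28, adjusted p = 0.0011). Both had their lowest control level in replicate 3, and neither group overlapped the other. Glutathione reductase (gsr), which returns oxidised glutathione to its reduced form, rose by 2.84 ± 0.14 (adjusted p = 5.8e-05), and gclc, the catalytic subunit of the enzyme that limits glutathione synthesis, by 1.75 ± 0.14 (adjusted p = 0.00036). The autophagy receptor gene sqstm1, an Nrf2 target whose product binds Keap1, rose by 2.01 ± 0.18. Heme oxygenase (hmox1a), also an Nrf2 target, had 27.8, 30.4 and 32.6 CPM in exposed libraries, against 39.6, 34.4 and 12.1 CPM in controls. Its groups overlapped and it did not pass (0.08 ± 0.38, adjusted p = 0.9); its log2 fold change was -0.28 against control replicates 1 and 2 and 1.33 against control replicate 3 alone.

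Many selenoprotein genes fell. These proteins carry selenocysteine, and several need selenium supply to keep their mRNA. The largest fall on the list was that of selenow1 (ENSDARG00000035136, chromosome 5, 61998641 to 62005081), a small muscle and brain selenoprotein, with 23.4, 23.6 and 26.7 CPM in exposed libraries, against 345, 289.9 and 148 CPM in controls (-3.41 ± 0.31, adjusted p = 0.00074). Control replicate 3 was the lowest control and still well above the exposed libraries. The glutathione peroxidase gene gpx1b had 1.1, 1.68 and 1.02 CPM in exposed libraries, against 6.98, 5.89 and 5.13 CPM in controls (-2.24 ± 0.27, adjusted p = 0.0019), and selenol fell by 1.62 on the log2 scale. Thioredoxin reductase (txnrd3), which is both a selenoprotein and a thiol defence gene, was the single member that rose, by 0.94 ± 0.13 (adjusted p = 0.0028). In all 1 of the 31 members tested rose and 13 fell, 3.23% and 41.9%, and the median was -0.39. The list as a whole depended on the controls, with a median of -0.53 against control replicates 1 and 2 and 0.00 against control replicate 3 alone, where 8 members were called higher and 12 lower. selenow1, gpx1b and selenol were lower in either case, as non-overlapping groups must be.

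**Figure D2:**
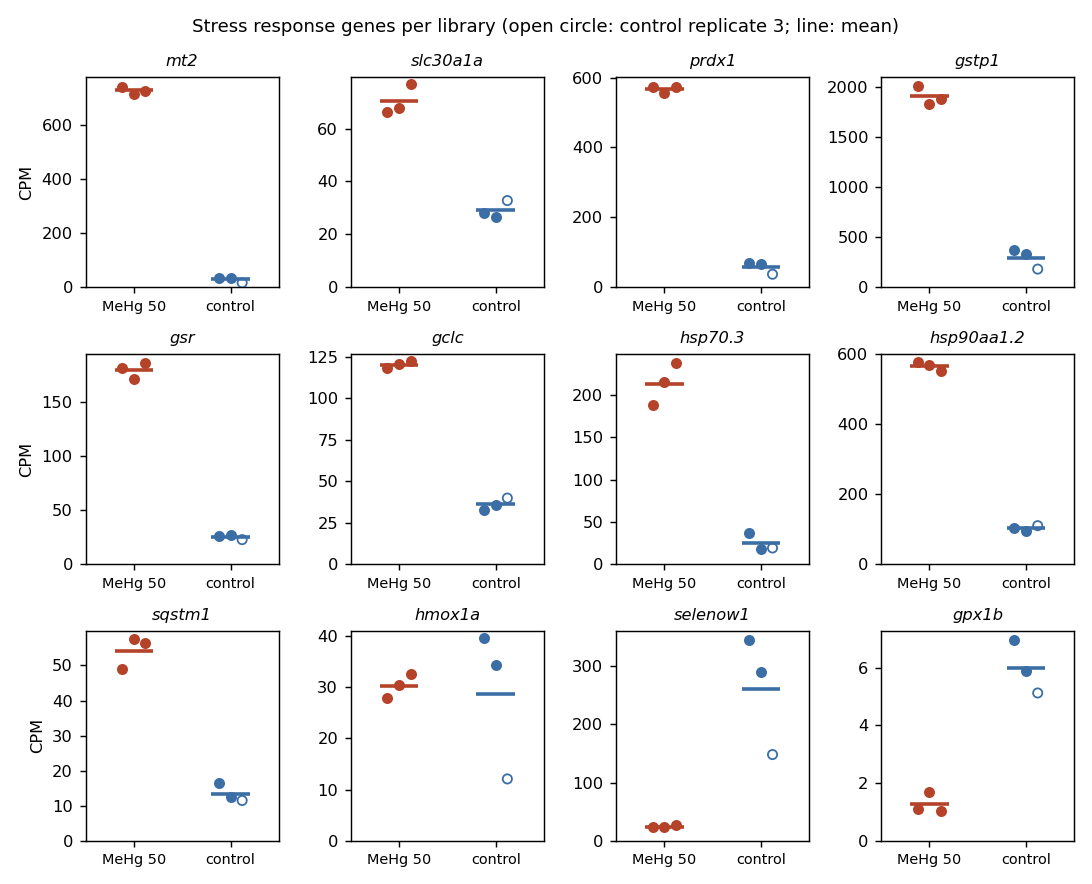
CPM of 12 stress response genes in each library, MeHg 50 µg/L at the left and control at the right of each panel; circles are libraries, the open circle is control replicate 3 and lines are group means. mt2, prdx1 and the heat shock genes lie above every control, selenow1 and gpx1b below, and hmox1a (27.8 to 32.6 CPM in exposed libraries, 12.1 to 39.6 CPM in controls) overlaps.

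Many chaperone genes rose, led by the cytosolic inducible ones. The Hsp70 gene hsp70.3 (ENSDARG00000021924, chromosome 3, 26123736 to 26127091) had 188, 215 and 238 CPM in exposed libraries, against 36.9, 17.8 and 18.9 CPM in controls (3.13 ± 0.30, adjusted p = 0.00095), and hsp90aa1.2 had 577, 569.7 and 553 CPM in exposed libraries, against 101, 95.5 and 109.5 CPM in controls (2.47 ± 0.14, adjusted p = 8.8e-05). No exposed library came near a control in either gene. The Hsp70 family genes hspa8b and hspa4a rose by 3.13 ± 0.17 and 2.03 ± 0.21. Of the chaperone list 18 of the 48 members tested rose and 2 fell (37.5% and 4.17%), with a median of 0.36 (0.30 against control replicates 1 and 2 and 0.55 against control replicate 3 alone). Proteasome genes, whose products degrade tagged proteins, had 11 of 50 members risen and 0 fallen (22.0% higher; median 0.33). This included the catalytic subunit gene psmb5, with 259.9, 260.1 and 281 CPM in exposed libraries, against 93.0, 112 and 130.4 CPM in controls (1.26 ± 0.16, adjusted p = 0.0022), the regulatory particle genes psmd11b (0.94 ± 0.13) and adrm1 (0.97 ± 0.13), and nfe2l1b (0.94 ± 0.14), whose product drives proteasome genes. The proteasome median was 0.12 against control replicates 1 and 2 and 0.87 against control replicate 3 alone, while these 4 genes rose by 0.94 to 1.38 against control replicates 1 and 2 and by 0.88 to 1.03 against control replicate 3 alone. The direction of these 4 was fixed, since they were chosen with no overlap between the groups.

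Several genes of amino acid supply under the transcription factor Atf4 rose. The serine synthesis gene phgdh had 208, 200.2 and 202 CPM in exposed libraries, against 82.6, 94.3 and 61.0 CPM in controls (1.36 ± 0.18, adjusted p = 0.0025), and asparagine synthetase (asns) had 70.6, 74.1 and 68.8 CPM in exposed libraries, against 43.9, 36.4 and 31.1 CPM in controls (0.94 ± 0.16, adjusted p = 0.0067). All exposed libraries lay above all controls in both. atf4b itself rose by 0.76 ± 0.13, the stress sensor gene sesn2 by 1.26 ± 0.14 and atf3, a transcription factor of the same response, by 0.95 ± 0.17. Of the unfolded protein response and Atf4 list 10 of the 49 members tested rose and 2 fell (20.4% and 4.08%; median 0.33, 0.28 against control replicates 1 and 2 and 0.38 against control replicate 3 alone).

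Several genes rose on a list of cell death genes and targets of the transcription factor p53. The cyclin-dependent kinase inhibitor gene cdkn1a had 27.3, 26.6 and 29.6 CPM in exposed libraries, against 9.36, 7.42 and 8.12 CPM in controls (1.75 ± 0.15, adjusted p = 0.00062), and bbc3, which encodes the pro-apoptotic protein Puma, had 29.9, 28.0 and 28.2 CPM in exposed libraries, against 9.02, 7.42 and 8.29 CPM in controls (1.80 ± 0.15, adjusted p = 0.00043). In both genes the groups did not overlap. List members were chosen with that condition, so their direction against fewer controls was fixed by the choice. gtse1, a gene of dividing cells, rose by 1.72 ± 0.19. Over this list of p53 targets and cell death genes 11 of the 39 members tested rose and 1 fell (28.2% and 2.56%). The median was only 0.02 (-0.10 against control replicates 1 and 2 and 0.30 against control replicate 3 alone). The plot of list medians names this list by growth arrest and cell death. Its members are not all of that class, since they include gtse1 and the interferon-response gene isg15.

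Many genes of the dividing cell rose too, and their shares were the highest of the 50 lists. Of 61 mitosis genes 44 rose and 0 fell (72.1% higher), and of 59 DNA replication genes 31 rose and 0 fell (52.5%). The medians were 0.92 for mitosis (0.86 against control replicates 1 and 2 and 1.15 against control replicate 3 alone) and 0.67 for replication (0.51 against control replicates 1 and 2 and 1.07 against control replicate 3 alone). Topoisomerase II alpha (top2a; ENSDARG00000024488, chromosome 12, 10706772 to 10740236), which untangles chromosomes, had 409, 398 and 383 CPM in exposed libraries, against 139, 161 and 164 CPM in controls (1.36 ± 0.13, adjusted p = 0.00099). The spindle midzone kinesin gene kif23, the condensin gene ncapd2 and the spindle checkpoint gene bub1bb rose by 1.25 ± 0.12, 1.30 ± 0.13 and 1.26 ± 0.14. Each had all exposed libraries above all controls. Ribonucleotide reductase (rrm1), which makes deoxynucleotides, had 452, 430.5 and 432 CPM in exposed libraries, against 162, 195 and 147 CPM in controls (1.38 ± 0.15, adjusted p = 0.0014), and the helicase gene mcm3, the licensing gene cdc6 and the histone chaperone gene chaf1b rose by 1.30 ± 0.16, 1.17 ± 0.14 and 1.77 ± 0.17. The sliding clamp gene pcna had 533, 500.3 and 519 CPM in exposed libraries, against 489, 461 and 258 CPM in controls, did not pass (0.36 ± 0.24, adjusted p = 0.3), and stood at 0.12 against control replicates 1 and 2 but at 1.01 against control replicate 3 alone.

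Many transcripts of myeloid cells were higher. The neutrophil peroxidase gene mpx had 97.8, 112 and 118 CPM in exposed libraries, against 14.2, 22.7 and 32.4 CPM in controls (2.24 ± 0.28, adjusted p = 0.0022), and the cathepsin S gene ctss2.1 (ENSDARG00000074656, chromosome 16, 29509133 to 29513434), a protease of phagocytes, had 76.4, 72.2 and 76.3 CPM in exposed libraries, against 8.81, 8.08 and 6.87 CPM in controls (3.25 ± 0.15, adjusted p = 5.4e-05). The controls of mpx differed by over 2-fold among themselves but stayed under the lowest exposed library. The macrophage scavenger receptor gene marco rose by 2.43 ± 0.21 and the granulin gene grn1 by 2.88 ± 0.34. Of the neutrophil and macrophage list 20 of the 45 members tested rose and 1 fell (44.4% and 2.22%), with a median of 0.67 (0.54 against control replicates 1 and 2 and 1.09 against control replicate 3 alone).

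Inflammation genes followed in part: 18 of the 58 members tested rose and 5 fell (31.0% and 8.62%; median 0.48, 0.51 against control replicates 1 and 2 and 0.40 against control replicate 3 alone). The chemokine gene ccl34a.4 had 24.1, 24.2 and 22.6 CPM in exposed libraries, against 2.44, 2.39 and 2.63 CPM in controls (3.24 ± 0.16, adjusted p = 5.6e-05), and the ubiquitin-like interferon-response gene isg15 rose by 3.09 ± 0.25. Collagenase genes under the symbol mmp13a occupy 2 rows of the table, which rose by 2.11 ± 0.21 (ENSDARG00000012395) and 1.40 ± 0.23 (ENSDARG00000114451). The gelatinase gene mmp9 had 51.7, 53.8 and 64.5 CPM in exposed libraries, against 19.7, 22.5 and 38.7 CPM in controls (1.07 ± 0.26, adjusted p = 0.025), with control replicate 3 the highest control. Against these, the class I gene mhc1zba fell, with 2.91, 5.28 and 2.71 CPM in exposed libraries, against 58.9, 43.6 and 29.7 CPM in controls (-3.60 ± 0.35, adjusted p = 0.00095). The level of mhc1zba did not follow the dose, with means of 1.48, 9.6 and 3.64 CPM at 6, 30 and 50 µg/L. Chemokine and class I genes have near copies, and how their reads were divided is uncertain. In the lysosome and autophagy list 10 of the 58 members tested rose and 3 fell (17.2% and 5.17%; median 0.04). The sphingolipid activator gene psap had 765, 831 and 838 CPM in exposed libraries, against 289, 320.4 and 229 CPM in controls (1.54 ± 0.17, adjusted p = 0.0013), and cathepsin B (ctsba) and the granulin gene grna rose by 0.93 ± 0.15 and 1.99 ± 0.22.

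Ferritin-like genes stood out among those of iron handling, where 11 of the 30 members tested rose and 4 fell (36.7% and 13.3%; median 0.42). fthl29 had 11.7, 10.6 and 11.0 CPM in exposed libraries, against 0.271, 0.254 and 0.58 CPM in controls (4.84 ± 0.31, adjusted p = 0.00018), and fthl31 had 72.2, 67.5 and 82.7 CPM in exposed libraries, against 7.39, 6.10 and 3.43 CPM in controls (3.73 ± 0.28, adjusted p = 0.00033). fthl28 and the fthl27 row ENSDARG00000031776 rose by 2.73 ± 0.29 and 1.66 ± 0.14. No exposed library overlapped a control in any of the 4. They are near copies of one another, so reads may be divided among them uncertainly. The level of the fthl27 row did not follow the dose. Its mean was 118.9 CPM in controls, and 89.9, 54.3 and 375 CPM at 6, 30 and 50 µg/L. The cytochrome b561 gene cyb561a3b, a member of a family of membrane electron carriers, had 34.7, 31.4 and 32.0 CPM in exposed libraries, against 2.44, 1.27 and 0.936 CPM in controls (4.44 ± 0.32, adjusted p = 0.00027), and slc25a38a, a mitochondrial glycine carrier of heme synthesis, rose by 3.28 ± 0.35.

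The exocrine pancreas had the lowest median of the 50 lists after the photoreceptors. Trypsinogen (prss1; ENSDARG00000042993, chromosome 16, 25080764 to 25085327) had 4.45, 4.18 and 5.07 CPM in exposed libraries, against 30.0, 23.0 and 20.2 CPM in controls (-2.41 ± 0.20, adjusted p = 0.00051), and the chymotrypsinogen gene ctrb1 had 0.989, 1.97 and 2.00 CPM in exposed libraries, against 15.2, 11.2 and 13.1 CPM in controls (-2.99 ± 0.29, adjusted p = 0.00095). The trypsin gene prss59.2 fell to 1.48, 0.986 and 1.28 CPM in exposed libraries, against 16.2, 11.9 and 10.8 CPM in controls, and the carboxypeptidase gene cpb1 changed by -1.97 ± 0.23. Every exposed library lay below every control in all 4. Of 41 symbols on the list, 17 were tested, 2 rose and 10 fell (11.8% and 58.8%), with a median of -1.97 (-1.92 against control replicates 1 and 2 and -2.02 against control replicate 3 alone). A member that rose, prss60.1, a serine protease gene at few counts, had 2.03, 2.26 and 1.9 CPM in exposed libraries, against 0.407, 0.254 and 0 CPM in controls. Islet and gut hormone genes had 3 of 25 risen and 4 fallen, near the shares of all genes (median -0.24). Insulin (ins) had 11.5, 11.9 and 13.1 CPM in exposed libraries, against 21.6, 22.6 and 9.01 CPM in controls and did not pass (-0.54 ± 0.33, adjusted p = 0.26); its log2 fold change was -0.86 against control replicates 1 and 2 and 0.43 against control replicate 3 alone. The neuroendocrine genes neurod1, isl1 and scg3, which neurons express too, changed by -1.32 ± 0.13, -0.87 ± 0.14 and -1.08 ± 0.15, and the somatostatin family gene sst6 by 1.59 ± 0.23.

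Single hepatocyte genes fell, while the liver list as a whole depended on the controls. The gene fabp10a, for a fatty acid carrier of hepatocytes (ENSDARG00000038439, chromosome 16, 52512025 to 52516915) had 1.59, 2.26 and 1.64 CPM in exposed libraries, against 26.3, 23.9 and 14.0 CPM in controls (-3.54 ± 0.30, adjusted p = 0.00055). Tryptophan dioxygenase (tdo2a) had 1.87, 1.74 and 1.79 CPM in exposed libraries, against 11.8, 10.3 and 10.2 CPM in controls (-2.57 ± 0.18, adjusted p = 0.00027), the complement gene c3b.2 changed by -1.76 ± 0.17 and agxtb, an aminotransferase that clears glyoxylate, by -1.96 ± 0.19. In these 4 genes no exposed library reached any control. Of the liver list 8 of the 76 members tested rose and 25 fell (10.5% and 32.9%; median -0.29). Against control replicates 1 and 2, 51 members were lower and 13 higher (median -0.48), but against control replicate 3 alone 23 were lower and 37 higher (median 0.29).

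Other genes of digestion and metabolism moved in both directions. Glucokinase (gck), the glucose sensor of liver and islets, had 1.59, 1.33 and 0.666 CPM in exposed libraries, against 20.7, 22.1 and 12.7 CPM in controls (-3.95 ± 0.36, adjusted p = 0.00073), the largest fall of the glycolysis list, in which 2 of the 36 members tested rose and 9 fell (median -0.32). The glycolysis median was -0.31 against control replicates 1 and 2 and -0.05 against control replicate 3 alone. The fructose bisphosphatase gene fbp2 and the glucose-6-phosphatase gene g6pca.2 changed by -1.14 ± 0.14 and -1.30 ± 0.17. With them fell fkbp5 (-1.25 ± 0.14) and klf9 (-1.98 ± 0.24), which glucocorticoids induce in many tissues. In this gluconeogenesis and hormone list 4 of the 24 members tested rose and 6 fell (16.7% and 25.0%). Its median was -0.185 (-0.20 against control replicates 1 and 2 and -0.02 against control replicate 3 alone). Intestine genes had 3 of 30 members risen and 5 fallen, near the shares of all genes (median -0.37). Members that fell included tm4sf5 (-2.56 ± 0.30), the retinol binding protein gene rbp2a (-0.90 ± 0.21) and the goblet cell gene agr2 (-1.49 ± 0.26). The endocytic adaptor gene dab2 was among those that rose (1.24 ± 0.19). In the lipoprotein and yolk list 3 of the 26 members tested rose and 2 fell (11.5% and 7.69%). Its median turned with the controls, from -0.28 against control replicates 1 and 2 (5 higher and 16 lower) to 0.40 against control replicate 3 alone. The apolipoprotein gene apoa4b.1 changed by -0.81 ± 0.23, and the yolk protein genes vtg7 and vtg1 rose by 2.62 ± 0.53 and 2.09 ± 0.52, with near copies in the same family. Of cytochrome P450 and conjugation genes 3 of the 55 members tested rose and 14 fell (5.45% and 25.5%). The list as a whole was not lower in each case, with 6 higher and 27 lower against control replicates 1 and 2 (median -0.39) but 15 higher and 13 lower against control replicate 3 alone (median 0.05). Among the members that fell, cyp4v8 had 1.15, 1.04 and 0.973 CPM in exposed libraries, against 36.0, 28.4 and 23.9 CPM in controls (-4.79 ± 0.23, adjusted p = 5.6e-05), and the bile acid gene cyp8b1 changed by -1.38 ± 0.18. The retinoic acid hydroxylase gene cyp26c1 rose by 1.39 ± 0.16. The aryl hydrocarbon receptor target cyp1a had 35.9, 43.9 and 60.4 CPM in exposed libraries, against 49.2, 50.4 and 18.8 CPM in controls, with overlap, and did not pass (0.25 ± 0.37, adjusted p = 0.66). In the cholesterol synthesis list 2 of the 30 members tested rose and 2 fell (6.67% each way, median -0.03). The rises were lbr at 0.77 ± 0.14 and the LDL receptor gene ldlrb at 0.88 ± 0.23. The falls were nsdhl at -0.715 ± 0.184 and sc5d at -0.638 ± 0.18. Both were smaller against control replicate 3 alone, at -0.44 each.

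Many skeletal muscle genes fell, while a few genes of a list of myogenic factors and myoblast fusion rose. Of 101 sarcomere and muscle metabolism genes 1 rose and 26 fell (0.99% and 25.7%), with a median of -0.40 (-0.48 against control replicates 1 and 2 and -0.16 against control replicate 3 alone). The fast myosin heavy chain gene myhb (ENSDARG00000001993, chromosome 6, 40745437 to 40756138) had 30.2, 33.1 and 33.2 CPM in exposed libraries, against 219, 176 and 208 CPM in controls (-2.64 ± 0.15, adjusted p = 8.8e-05), and the fast troponin I gene tnni2a.1 had 1.37, 1.39 and 1.64 CPM in exposed libraries, against 22.9, 16.1 and 14.4 CPM in controls (-3.59 ± 0.25, adjusted p = 0.00024). In both genes the groups lay far apart. The myosin gene myhz1.1 and the tropomyosin gene tpm1 changed by -2.34 ± 0.16 and -1.78 ± 0.15. In that list 5 of the 26 members tested rose and 0 fell (19.2% higher). The median was 0.33 (0.33 against control replicates 1 and 2 and 0.38 against control replicate 3 alone). Members that rose included the early myogenic factor gene myf5 (1.34 ± 0.23), six4b (1.07 ± 0.18), mef2ca (0.60 ± 0.14) and the myosin chaperone gene hsp90aa1.1 (0.86 ± 0.22). Myosin and troponin genes have near copies in this genome. In the heart list 3 of the 35 members tested rose and 3 fell (8.57% each way). The median was -0.09 (-0.04 against control replicates 1 and 2 and 0.13 against control replicate 3 alone). The atrial light chain gene myl4 and the heavy chain gene myh7 changed by -1.36 ± 0.14 and -1.03 ± 0.15, the flow-responsive gene klf2a by -0.87 ± 0.16, and the cardiac transcription factor gene gata6 rose by 0.93 ± 0.18.

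In the skeleton, a few cartilage matrix genes fell strongly, while the direction of the cartilage list as a whole depended on the controls. Matrilin 1 (matn1; ENSDARG00000030215, chromosome 19, 43314700 to 43338280), a cartilage matrix protein, had 77.6, 89.2 and 87.8 CPM in exposed libraries, against 497, 504 and 624 CPM in controls (-2.67 ± 0.16, adjusted p = 0.00013). The secreted cartilage gene mia changed by -2.67 ± 0.20, the chondrocyte proteoglycan gene snorc by -1.48 ± 0.17 and the collagen X gene col10a1a by -1.19 ± 0.15. Cartilage collagen II (col2a1a) had 727, 657 and 619 CPM in exposed libraries, against 272, 393 and 727 CPM in controls, with overlap, and did not pass (0.52 ± 0.33, adjusted p = 0.28); its log2 fold change was 1.00 against control replicates 1 and 2 and -0.12 against control replicate 3 alone. Of the cartilage list 3 of the 35 members tested rose and 9 fell (median -0.09), with 15 higher and 14 lower against control replicates 1 and 2 (median 0.04) but 6 higher and 20 lower against control replicate 3 alone (median -0.26). Of bone and tooth matrix genes 0 of the 22 members tested rose and 4 fell, with scpp5, a secreted calcium-binding phosphoprotein gene of teeth, at 0, 0.232 and 0.256 CPM in exposed libraries, against 12.5, 8.34 and 10.3 CPM in controls. The nucleotidase gene entpd5a and the fin fold actinodin gene and2 changed by -0.81 ± 0.22 and -0.52 ± 0.15. Among other collagens and matrix genes 5 of the 47 members tested rose and 3 fell (10.6% and 6.38%). This list too depended on the controls. Its median was 0.16 (0.34 against control replicates 1 and 2 and 0.03 against control replicate 3 alone). Against control replicates 1 and 2, 29 members were higher and 6 lower, where 31.2% and 31.7% of all genes were. Fibronectin (fn1b) had 583, 703 and 714 CPM in exposed libraries, against 189, 174 and 302 CPM in controls (1.59 ± 0.23, adjusted p = 0.004). The collagen genes col18a1a and col28a1a changed by 0.73 ± 0.15 and 0.77 ± 0.17, and the lysyl oxidase gene loxa by -0.97 ± 0.17. Of metalloproteinases and inhibitors 6 of the 27 members tested rose and 3 fell, with mmp11a and mmp17b at -0.85 ± 0.15 and -1.34 ± 0.18.

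Some skin genes were lower and a few pigment genes higher. Of epidermal genes 0 of the 45 members tested rose and 10 fell (22.2% lower; median -0.23, -0.35 against control replicates 1 and 2 and 0.11 against control replicate 3 alone). The keratin gene krt17 had 126, 125 and 114 CPM in exposed libraries, against 410.1, 328 and 295 CPM in controls (-1.50 ± 0.16, adjusted p = 0.0013), and cyt1, a keratin of the outer epidermis, had 494, 526 and 475 CPM in exposed libraries, against 1927, 1510.4 and 913 CPM in controls (-1.54 ± 0.26, adjusted p = 0.0072). The keratin gene krt92 and the cell adhesion gene epcam changed by -0.91 ± 0.15 and -0.85 ± 0.16. The keratin gene krt4, abundant in the outer epidermis, had 12966, 12949.7 and 13242 CPM in exposed libraries, against 15782, 15745 and 9592 CPM in controls and did not pass (-0.07 ± 0.23, adjusted p = 0.85), at -0.27 against control replicates 1 and 2 and 0.45 against control replicate 3 alone. In the ionocyte list 1 of the 32 members tested rose and 7 fell (3.12% and 21.9%), with the ammonia transporter gene rhbg at -0.88 ± 0.15, the water channel gene aqp3a at -0.90 ± 0.18, the chloride channel gene clcn2c at -0.72 ± 0.16 and the potassium channel gene kcnj1a.6 at -1.07 ± 0.25. In the pigment cell list 6 of the 37 members tested rose and 2 fell (16.2% and 5.41%). The median was 0.16 (0.10 against control replicates 1 and 2 and 0.34 against control replicate 3 alone). Against control replicates 1 and 2, 11 members were higher and 9 lower, where 31.2% and 31.7% of all genes were. The melanin synthesis gene dct rose, with 136, 142 and 152 CPM in exposed libraries, against 76.5, 84.6 and 77.6 CPM in controls. Other rises were the melanocyte regulator gene mitfa (1.27 ± 0.22), aox5 of xanthophores (0.67 ± 0.14) and mycla (1.26 ± 0.20). Genes that mark embryonic and larval stages were also checked. The hatching enzyme gene he1.2 had 14.9, 15.3 and 15.4 CPM in exposed libraries, against 6.30, 2.95 and 2.01 CPM in controls (2.04 ± 0.38, adjusted p = 0.0096) and lin28a, an RNA-binding regulator of early development, rose by 1.49 ± 0.17. The level of he1.2 did not follow the dose, with means of 17.4, 9.06 and 15.2 CPM at 6, 30 and 50 µg/L. Of the stage list 5 of the 25 members tested rose and 2 fell, mbpa and hbae1.3 (median 0.25). Of the hatching gland list 1 of the 15 members tested rose, he1.2, and 1 fell, agr2. These shares, 6.67% each way, were below those of all genes. The share of a difference in stage in the tissue results was not tested.

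**Figure D3:**
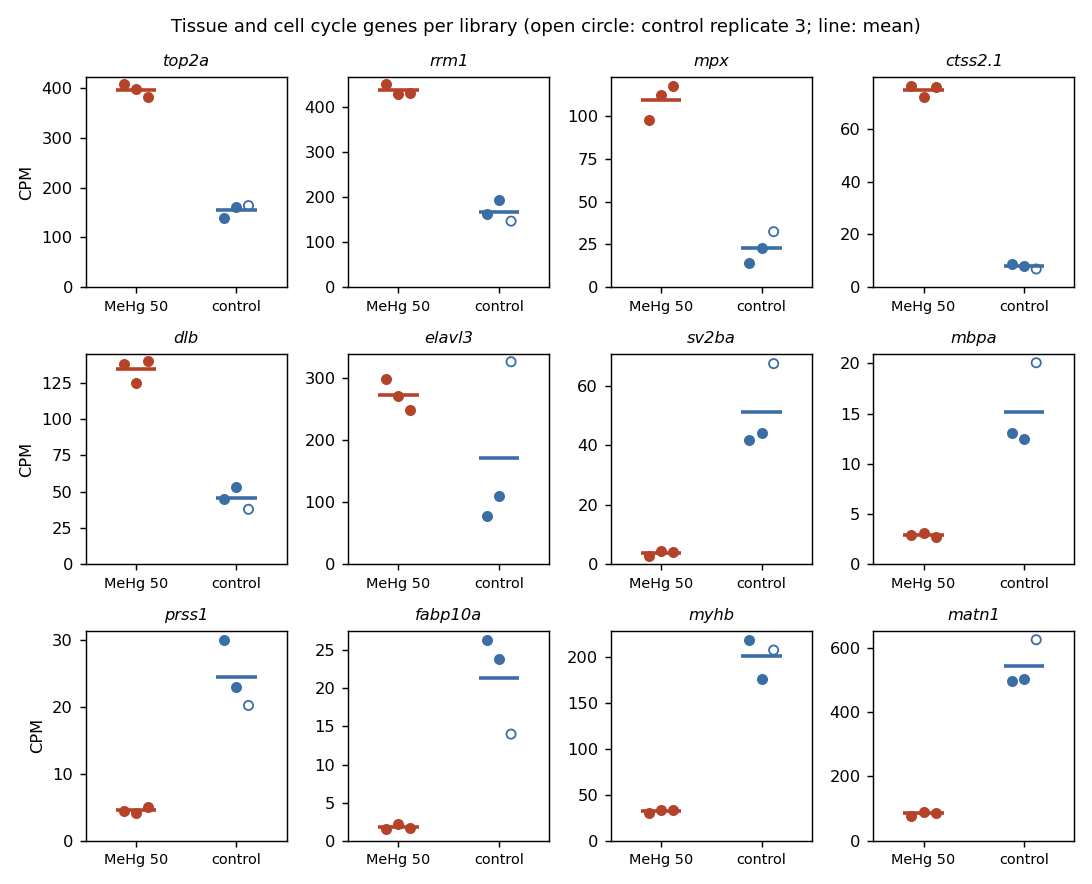
CPM of 12 cell cycle, myeloid, neural and organ genes in each library, MeHg 50 µg/L at the left and control at the right of each panel; circles are libraries, the open circle is control replicate 3 and lines are group means. top2a, rrm1, mpx, ctss2.1 and dlb lie above every control, sv2ba, mbpa, prss1, fabp10a, myhb and matn1 below, and elavl3 (248 to 298 CPM in exposed libraries, 76.9 to 325 CPM in controls) overlaps.

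In the nervous system, many genes of progenitors rose and many synapse genes fell. The Notch ligand gene dlb (ENSDARG00000004232, chromosome 5, 36693859 to 36701760), expressed as neurons are born, had 138, 125 and 140.0 CPM in exposed libraries, against 44.9, 53.1 and 37.8 CPM in controls (1.57 ± 0.16, adjusted p = 0.0011), and its relative dla had 93.0, 88.4 and 92.6 CPM in exposed libraries, against 40.3, 45.2 and 41.2 CPM in controls (1.11 ± 0.12, adjusted p = 0.0015). insm1a, a factor of newly formed neurons, rose by 1.60 ± 0.19. All 3 had exposed libraries above all controls. Of the progenitor and early neuron list 18 of the 58 members tested rose and 4 fell (31.0% and 6.90%; median 0.44, 0.63 against control replicates 1 and 2 and 0.31 against control replicate 3 alone). The neuronal RNA-binding gene elavl3 had 298, 269.9 and 248 CPM in exposed libraries, against 76.9, 109.5 and 325 CPM in controls and did not pass (0.67 ± 0.48, adjusted p = 0.34). Its log2 fold change was 1.54 against control replicates 1 and 2 and -0.26 against control replicate 3 alone, so no direction can be given.

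Of synapse genes 0 of the 84 members tested rose and 24 fell (28.6% lower), with a median of -0.50. The synaptic vesicle gene sv2ba (ENSDARG00000057427, chromosome 7, 15266093 to 15306015) had 2.75, 4.35 and 3.94 CPM in exposed libraries, against 41.7, 44.3 and 67.5 CPM in controls (-3.80 ± 0.27, adjusted p = 0.00027), and the vesicle calcium sensor gene syt5b had 10.6, 15.2 and 15.9 CPM in exposed libraries, against 122, 104 and 103 CPM in controls (-2.98 ± 0.20, adjusted p = 0.00021). The complexin gene cplx4a of retinal ribbon synapses changed by -5.18 ± 0.38. The list thus holds retinal genes, and how much of its fall came from the retina was not tested. snap25a, a component of the fusion machinery of most synapses, had 168, 168 and 166 CPM in exposed libraries, against 339.5, 306 and 312 CPM in controls (-0.93 ± 0.12, adjusted p = 0.0027), lower in each exposed library than in any control. The list depended on the controls. Its median was -0.10 against control replicates 1 and 2 and -1.18 against control replicate 3 alone. Against control replicates 1 and 2, 31 of the 84 members were lower and 20 higher, where 31.7% and 31.2% of all genes were. The named genes were lower against either set of controls, as non-overlapping groups must be.

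Some myelin genes fell, with mbpa at 2.91, 3.08 and 2.66 CPM in exposed libraries, against 13.1, 12.4 and 20.1 CPM in controls (-2.40 ± 0.24, adjusted p = 0.001). Its paralog mbpb, the myelin glycoprotein gene mag and the glial filament gene gfap changed by -0.80 ± 0.16, -1.58 ± 0.24 and -0.75 ± 0.16. Of the myelin and glia list 0 of the 30 members tested rose and 7 fell (23.3% lower). The median was -0.20 (-0.05 against control replicates 1 and 2 and -0.20 against control replicate 3 alone). Against control replicates 1 and 2, 7 members were higher and 13 lower, where 31.2% and 31.7% of all genes were. Of monoamine and peptide neuron genes 2 of the 35 members tested rose and 8 fell (5.71% and 22.9%; median -0.35, -0.39 against control replicates 1 and 2 and -0.34 against control replicate 3 alone), with the enkephalin gene penka at -1.33 ± 0.22 and the serotonin synthesis gene tph1a at -1.21 ± 0.26, while gch1, which makes the cofactor of monoamine synthesis, and the peptide gene cart3 rose by 1.15 ± 0.15 and 1.22 ± 0.23. Of tubulin and axon cytoskeleton genes 6 of the 45 members tested rose and 8 fell (13.3% and 17.8%). The median turned with the controls, from 0.47 against control replicates 1 and 2 (26 higher and 9 lower) to -0.21 against control replicate 3 alone. The alpha tubulin gene tuba8l4 had 1285, 1309 and 1499.6 CPM in exposed libraries, against 232, 276 and 509.7 CPM in controls (2.01 ± 0.30, adjusted p = 0.0041), against falls of the neuronal genes tuba2 (-1.04 ± 0.14), stmn4 (-1.06 ± 0.14) and stmn2a (-0.79 ± 0.13). The pituitary list had a median of -0.125 (0.01 against control replicates 1 and 2 and -0.33 against control replicate 3 alone). Of 10 pituitary genes 0 rose and 2 fell, hesx1 (-0.79 ± 0.14) and growth hormone (gh1, -0.88 ± 0.26), and gh1 did not pass against control replicate 3 alone (adjusted p = 0.13).

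Among sensory organs, 44 of 53 photoreceptor genes fell and 0 rose (median -3.82), with the cone transducin gene gnat2 at 2.58, 3.25 and 2.82 CPM in exposed libraries, against 183, 161 and 200.4 CPM in controls. The opsin genes opn1mw1 and opn1sw2 and the transducin gene gngt2b changed by -9.76 ± 0.25, -7.07 ± 0.22 and -8.44 ± 0.24. Of 55 genes of the inner retina and lens 3 rose and 8 fell (5.45% and 14.5%; median 0.13). The sign of this median too changed with the controls, from 0.23 against control replicates 1 and 2 to -0.07 against control replicate 3 alone. Against control replicates 1 and 2, 25 members were higher and 17 lower, where 31.2% and 31.7% of all genes were. Lower in either case, as non-overlapping groups must be, were the retinoid carrier gene rlbp1a, at 7.58, 8.64 and 8.55 CPM in exposed libraries, against 35.7, 35.1 and 29.5 CPM in controls (-2.02 ± 0.15, adjusted p = 0.00034), and the bipolar cell GABA receptor gene gabrr1 (-2.61 ± 0.40). In the ear and lateral line list 1 of the 33 members tested rose and 5 fell (3.03% and 15.2%). The median was -0.36 (-0.30 against control replicates 1 and 2 and -0.28 against control replicate 3 alone). The hair cell calcium buffer gene pvalb8 had 11.8, 14.3 and 13.0 CPM in exposed libraries, against 67.0, 59.7 and 56.2 CPM in controls (-2.22 ± 0.15, adjusted p = 0.00021), atp1b2b and otos changed by -1.84 ± 0.17 and -1.40 ± 0.14, and atoh1a, which specifies hair cells and also some neurons, rose by 1.14 ± 0.22. Of cilium genes 2 of the 54 members tested rose and 10 fell (3.70% and 18.5%), with the BBSome genes bbs5 and arl6 at -1.90 ± 0.17 and -1.36 ± 0.16 and the transition zone gene mks1 at -1.53 ± 0.18, while foxj1a, the regulator of motile cilia, had 15.2, 17.0 and 20.2 CPM in exposed libraries, against 3.80, 4.62 and 6.02 CPM in controls (1.85 ± 0.22, adjusted p = 0.0018). Of clock and pineal genes 8 of the 44 members tested rose and 4 fell, with 20 higher and 11 lower against control replicates 1 and 2 (median 0.25) but 10 higher and 14 lower against control replicate 3 alone (median -0.11). The cryptochrome family genes cry3a and cry5 changed by -1.16 ± 0.15 and 1.43 ± 0.17, lonrf1l by 1.20 ± 0.24 and the nuclear receptor gene rorcb by -0.77 ± 0.12. per1a lay below the expression filter and was not tested.

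In blood and vessels, the scavenger endothelial genes stab2 and stab1, whose products clear matrix fragments, rose. stab2 had 68.0, 77.3 and 77.7 CPM in exposed libraries, against 17.4, 22.9 and 19.8 CPM in controls (1.89 ± 0.15, adjusted p = 0.00043) and stab1 changed by 0.91 ± 0.14. The glucose carrier gene slc2a1a and tal1, which specifies blood and endothelium, changed by -1.16 ± 0.22 and -0.78 ± 0.14. Of endothelial genes 11 of the 47 members tested rose and 4 fell (23.4% and 8.51%; median 0.44, 0.40 against control replicates 1 and 2 and 0.34 against control replicate 3 alone). Globin genes moved apart. hbae1.1 had 34.6, 34.7 and 28.2 CPM in exposed libraries, against 22.9, 18.8 and 17.4 CPM in controls (0.72 ± 0.17, adjusted p = 0.02) and hbae1.3 had 10.2, 8.99 and 8.09 CPM in exposed libraries, against 40.9, 34.8 and 18.6 CPM in controls (-1.79 ± 0.29, adjusted p = 0.0059). They lie among near copies, and how reads were divided between these is uncertain. The level of hbae1.1 did not follow the dose. Its mean was 19.66 CPM in controls, and 10.35, 11.73 and 32.48 CPM at 6, 30 and 50 µg/L. The red cell enzyme gene bpgm changed by -1.31 ± 0.18. Of the erythroid list 5 of the 43 members tested rose and 6 fell (11.6% and 14.0%, near the shares of all genes). The median was 0.10 (-0.12 against control replicates 1 and 2 and 0.69 against control replicate 3 alone).

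The reading for genes of mitochondria and ribosomes depended on the controls. Of 81 nuclear genes of oxidative phosphorylation 0 rose and 4 fell (0% and 4.94%, against backgrounds of 9.63% and 12.6%), although the median was -0.45. Against control replicates 1 and 2, 71 were lower and 3 higher (median -0.67). Against control replicate 3 alone, 8 were lower and 10 higher (median 0.07). The members that fell against all controls were atp5f1e (-1.02 ± 0.19), cox4i2 (-1.24 ± 0.17), ndufs8a (-0.81 ± 0.15) and sdhdb (-0.79 ± 0.22). The abundant ATP synthase genes atp5mc3b and atp5f1b, at -0.59 ± 0.24 and 0.46 ± 0.25, overlapped and did not pass. The 13 protein genes of the mitochondrial genome had 0 risen and 0 fallen and a median of -0.65, with 0 higher and 12 lower against control replicates 1 and 2 (median -0.80) but 3 higher and 2 lower against control replicate 3 alone (median -0.12). Among the most abundant, mt-co1 had 14469, 14659.6 and 14525 CPM in exposed libraries, against 14356, 15947 and 13858 CPM in controls and mt-co2 had 5080.2, 4518 and 4523 CPM in exposed libraries, against 7629.8, 7024 and 4714 CPM in controls. In both genes the groups overlapped, and in mt-co2 only control replicate 3 fell among the exposed libraries.

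Ribosomal protein genes showed the same dependence. Of 79, 1 rose (rplp0, 0.78 ± 0.16) and 1 fell (rps8b, -1.01 ± 0.24), with a median of -0.04. Against control replicates 1 and 2, 60 were lower, and against control replicate 3 alone 77 were higher. rps15 had 931, 841 and 862 CPM in exposed libraries, against 1176, 1068 and 590.0 CPM in controls and stood at log2 fold changes of -0.35 and 0.57 in these comparisons. These are short genes, with a median exonic size of 1222 bases for ribosomal proteins, 997 for nuclear oxidative phosphorylation and 786 for the mitochondrial genome, against 2307 over all genes tested. The tilt with gene length differs between control replicate 3 and the other controls. With a length correction the medians were 0.10, -0.31 and -0.48. The part of gene length in these results was not tested beyond that correction, and which controls are typical cannot be told from these libraries.

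**Figure D4:**
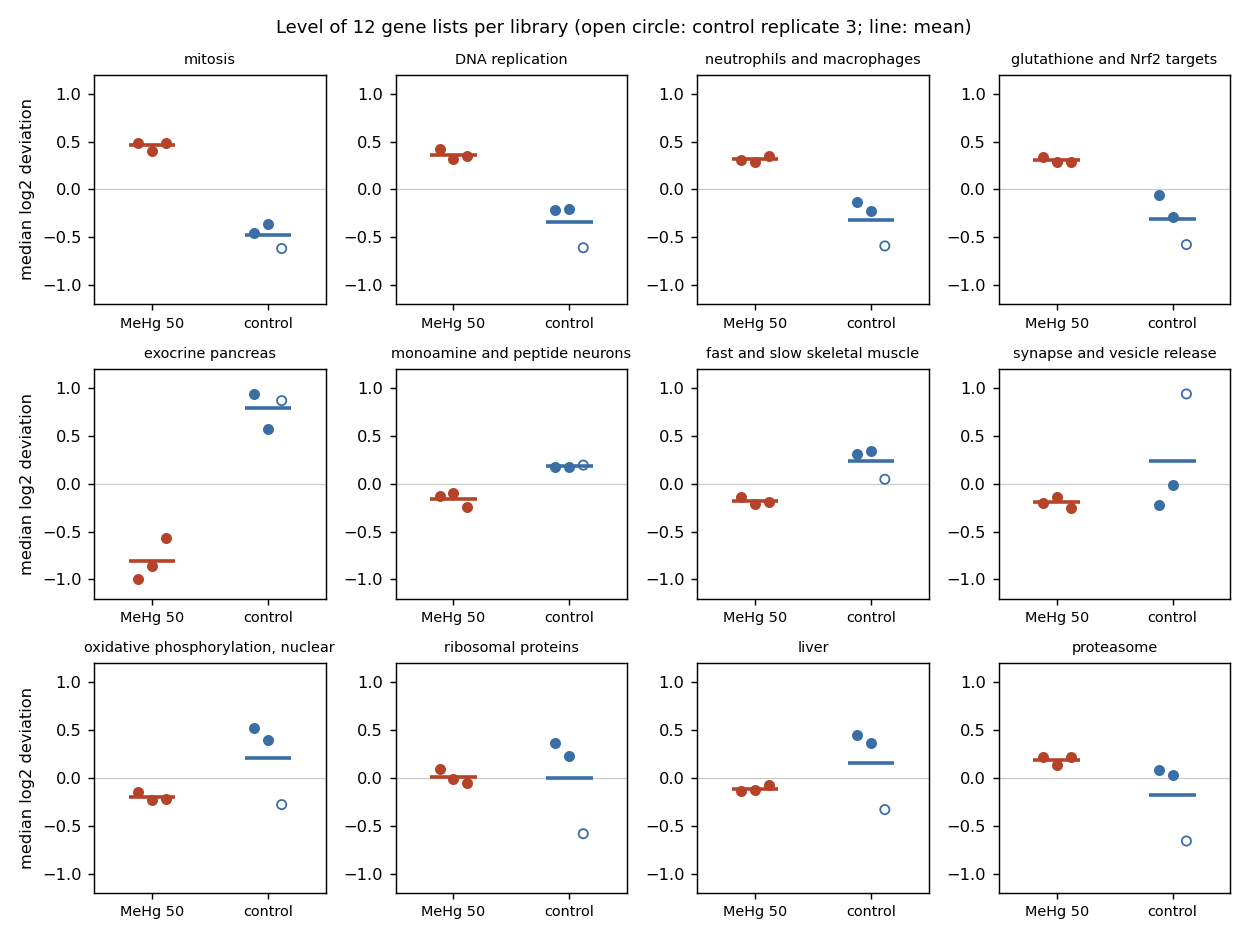
Level of 12 gene lists in each library, MeHg 50 µg/L at the left and control at the right of each panel, as the median over members of log2(CPM + 0.5) minus that gene's mean over the 6 libraries; circles are libraries, the open circle is control replicate 3 and lines are group means. Mitosis lies at 0.48, 0.40 and 0.49 in exposed libraries and -0.46, -0.36 and -0.62 in controls, whereas for ribosomal proteins (0.09, -0.01 and -0.05, against 0.37, 0.23 and -0.58) the exposed libraries fall between control replicates 1 and 2 and control replicate 3.

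The largest changes of all named genes, apart from those already given, were of single genes with varied roles. Rises included the chemokine genes ccl34b.8 (2.36, 1.45 and 1.23 CPM in exposed libraries, against 0.0678, 0.0508 and 0.134 CPM in controls; 4.16 ± 0.52, adjusted p = 0.0021) and ccl35.1 (3.70 ± 0.44), the galectin gene lgals9l5 (3.29 ± 0.36) and the membrane protein gene ms4a17a.8 (3.39 ± 0.35). The level of ms4a17a.8 did not follow the dose. Its mean was 0.447 CPM in controls, and 4.39, 0.686 and 4.95 CPM at 6, 30 and 50 µg/L. The microRNA gene dre-mir-217 was called at 3.69 ± 1.04 from 3, 8 and 6 counts in exposed libraries and 1, 0 and 0 in controls, too few to give its size. Among falls, ggact.3, a gene of the gamma-glutamylamine cyclotransferase family, had 0 counts in each exposed library, against 144, 165 and 38 in controls. With a floor of 3 counts over the exposed group (0.0546 CPM) it was at least 121-fold below the mean of all 3 controls. That bound does not hold against control replicate 3, at 1.69 CPM against 9.76 and 8.385 CPM in control replicates 1 and 2. The deubiquitinase gene usp21 had 0.0549, 0.116 and 0.0512 CPM in exposed libraries, against 4.81, 3.25 and 4.99 CPM in controls (-5.77 ± 0.42, adjusted p = 0.00027). Genes of retinal and glial transport and matrix were also there, namely the glutamate transporter genes slc1a8a (-5.19 ± 0.40) and slc1a2a (-4.81 ± 0.32) and the interphotoreceptor matrix gene impg1a (-4.61 ± 0.58), as were lrtm2b (-5.85 ± 0.79) and the apoptosis inhibitor gene faimb (-4.59 ± 0.24). The trim family gene btr21 had 0.11, 0 and 0.102 CPM in exposed libraries, against 7.73, 7.12 and 0.892 CPM in controls (-6.04 ± 1.08, adjusted p = 0.0082), with control replicate 3 well below the other controls.

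The step up from 30 µg/L, which does not use the controls, showed which of these genes moved further at the highest dose. Against embryos at 30 µg/L, 2888 genes (14.6%) rose and 2962 (14.9%) fell at 50 µg/L (edgeR, adjusted p under 0.05). mt2 averaged 727 ± 12.6 CPM in the 3 libraries at 50 µg/L, against 134 ± 28.6 CPM in those at 30 µg/L (SD, n = 3 each), a log2 difference of 2.44 ± 0.11 (adjusted p = 2.4e-10). hsp70.3 averaged 214 ± 24.6 and 69.5 ± 20.3 CPM at 50 and 30 µg/L (1.61 ± 0.15, adjusted p = 7.4e-07), and hspa4a 302 ± 7.06 and 146 ± 11.3 CPM (1.05 ± 0.06). At 6 µg/L and in controls mt2 averaged 16.1 ± 2.14 and 27.8 ± 10.4 CPM. Chaperones had 28 of 48 higher and 4 lower, the proteasome 32 of 50 higher and 0 lower, and the unfolded protein response and Atf4 list 21 of 49 higher and 3 lower. The glutathione and Nrf2 list had 25 of 53 higher and 9 lower, with prdx1 at 0.46 ± 0.06 and gstp1 at 0.60 ± 0.05, and the lysosome list 22 of 58 higher and 6 lower.

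The tissue groups were divided between these doses. Mitosis genes had 11 of 61 higher and 3 lower (median 0.04) against a background of 14.6% and 14.9%, and DNA replication 17 of 59 higher and 7 lower (median 0.12). top2a averaged 397 ± 13.1 and 362 ± 10.5 CPM at 50 and 30 µg/L and did not pass (0.13 ± 0.05, adjusted p = 0.061). Many muscle genes were lower at 50 than at 30 µg/L (5 of 101 higher and 42 lower), as were many synapse genes (3 of 84 higher and 44 lower). The neural progenitor list had 2 of 58 higher and 22 lower at 50 than at 30 µg/L. Genes of the exocrine pancreas had 2 of 17 higher and 5 lower, and prss1 averaged 4.57 ± 0.458 and 5.96 ± 0.0932 CPM (-0.38 ± 0.14, adjusted p = 0.059). Liver genes had 27 of 76 higher and 11 lower. Epidermal cyt1 averaged 498 ± 25.4 and 1447 ± 64.8 CPM (-1.54 ± 0.05, adjusted p = 1.9e-11).

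Several of the largest single differences between 50 and 30 µg/L were in genes whose level did not follow the dose. The class I gene mhc1uba had 3.19, 4.18 and 3.74 CPM at 50 µg/L, against 0, 0.0576 and 0.0459 CPM at 30 µg/L. It had 1.95, 1.32 and 0.977 CPM at 6 µg/L, against 4.88, 4.42 and 0.624 CPM in controls. cyp2p9 averaged 5.04 ± 0.157 CPM at 50 and 0.116 ± 0.0219 CPM at 30 µg/L, with 4.16 ± 0.409 CPM in controls. Others higher at 50 µg/L were il11a (4.36 ± 0.41), znf977 (3.57 ± 0.31), the chemokine gene ccl39.3 (3.54 ± 0.64) and lect2l (3.49 ± 0.39). Lower at 50 µg/L were btr21 (-6.06 ± 0.42), malb (-3.96 ± 0.35), pcdh1g14 (-3.84 ± 0.32), scpp5 (-3.60 ± 0.47) and znf1073 (-3.31 ± 0.41). The row of actc1a with ENSDARG00000076126 had 5.44, 6.67 and 7.94 CPM at 50 µg/L, against 120.3, 144 and 135 CPM at 30 µg/L, and controls at 7.39, 9.30 and 94.8 CPM. Its control replicate 3 resembled the 30 µg/L libraries and the other controls the 50 µg/L libraries.

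**Figure D5:**
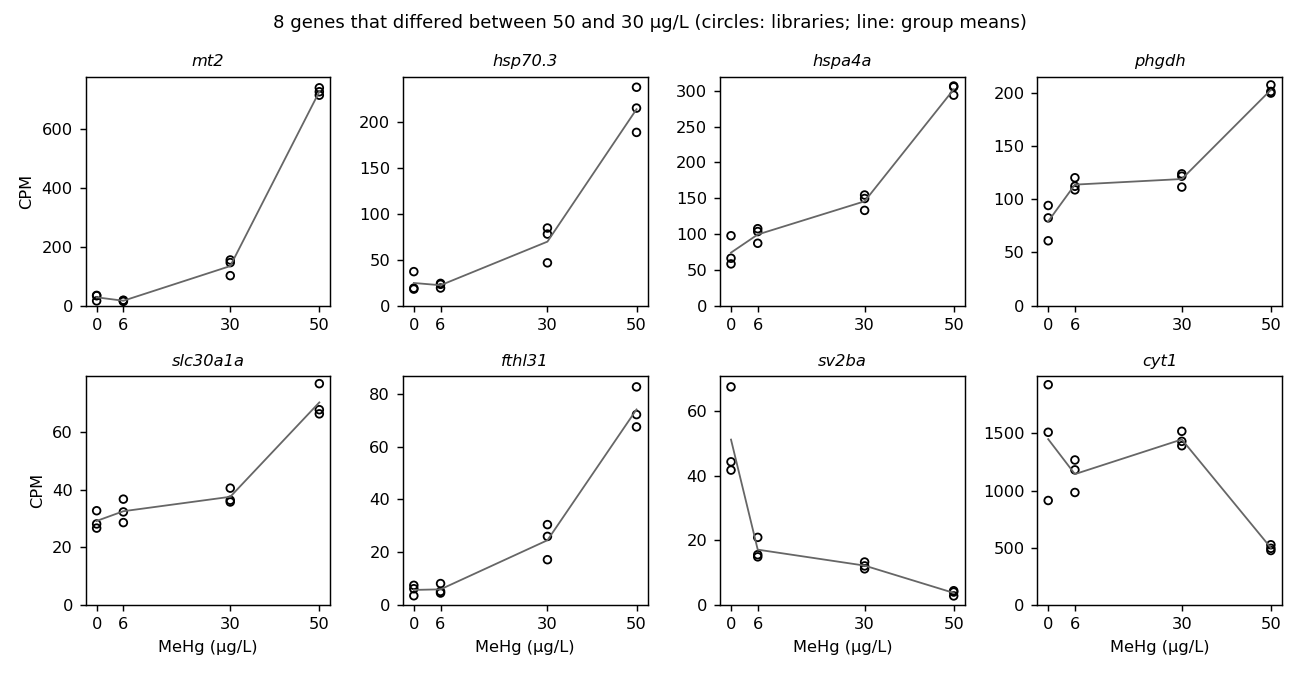
CPM of 8 genes at 0, 6, 30 and 50 µg/L MeHg; circles are libraries and lines join group means. The first 6 genes are highest at 50 µg/L, mt2 at 727 CPM against 134 CPM at 30 µg/L, and sv2ba and cyt1 are lowest there, cyt1 at 498 CPM against 1447 CPM.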

How the data were processed

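Poly(A) RNA of whole embryos was sequenced as paired reads of 150 bases, per the labels' protocols. The deposited table holds whole-number counts of reads per gene, with no normalization. It also holds the authors' FPKM values, which follow from those counts, the exonic gene size and the library total (equal within 0.005 for 100% of values). The build GRCz11 and the tools HISAT2 2.0.1, HTSeq 0.6.1, DESeq2, cutadapt 1.9.1 and FastQC 0.10.1 are named, per the submitters' processing notes. Which annotation release and strand setting were used is not stated there, and reads of a gene and an antisense or overlapping partner cannot be separated. Each column was assigned to the sample whose title holds its code.

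edgeR 4.0.16 in R 4.3.3 was run on the counts of the 6 compared libraries (TMM scaling over all 12 libraries, quasi-likelihood fit, two-sided, Benjamini-Hochberg adjustment over the 19821 genes with a mean of at least 0.5 FPKM, adjusted p under 0.05). The 12 libraries were not fitted together because controls spread more than exposed groups, which would make the error of this comparison too small. The SE is approximate, the log2 fold change over the root of F. CPM are counts scaled to a common TMM-scaled total. A gene with 0 counts in a group was given a floor of 3 counts over that group, which covers counting error only, since reads carry no molecular identifiers. Library totals ran from 15784965 to 20928762 counts in the 6 libraries.

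The comparison, the 50 gene lists and the rule for named genes were chosen with earlier results of these data known. Of 2285 list entries 2161 matched by symbol and 37 through reference tables, and 87 did not match. The rule named the 12 largest rises and falls of called genes with at least 1 FPKM and no overlap (photoreceptor genes and clone names apart). From each list it took up to 4 called members with no overlap and the smallest p. It also took 28 genes fixed whatever their result, and the 6 largest differences each way between 50 and 30 µg/L. Not all genes so named are printed. The edgeR test was run on simulated counts with known changes before use. Alternatives used DESeq2 1.42.0 and limma 3.58.1, which was also run on log2(FPKM + 1) and log2(FPKM + 0.1). Sequences were not used here.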

Additional observations from a re-analysis of the deposited data

How the results depend on the processing

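Leaving out each library in turn gave 569 to 6189 genes higher and 878 to 6280 lower than in controls, against 1909 and 2489 with all 6. With control replicate 3 as the only control there were 4746 and 4954, and with all 12 libraries fitted together 3492 and 4332. An adjusted p under 0.01 left 607 and 932, and a log2 fold change of 1 or more either way left 838 and 1346. Scaling by library totals, by median of ratios or with a length correction, other expression filters, DESeq2, limma and robust edgeR moved neither count by over 1.5 times. The difference of 50 from 30 µg/L (2888 and 2962) became 828 and 880 with all 12 libraries and stayed between 2307 and 2702 higher and between 2261 and 2645 lower without any single library.

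Whether the replicate numbers pair the samples is not stated in the sources. Same-numbered exposed and control libraries deviated from their group means with correlations of 0.164, -0.164 and -0.013, and those at 50 and 30 µg/L with 0.08, -0.002 and 0.059. Exposed replicate 1 was most like replicate 1 in both comparisons, and exposed replicate 3 most like replicate 3 at 30 µg/L. With 3 libraries a group and control replicate 3 apart, such correlations cannot exclude a pairing. With the replicate number as a block, 1732 genes were higher and 1889 lower than in controls, and 3298 and 3309 against 30 µg/L.

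Among the named genes, a value called in an alternative had the opposite sign in 5 cases, each in a gene that did not pass against all 3 controls. With control replicate 3 as the only control elavl3 was at -0.26, krt4 at 0.45, ins at 0.43 and rps15 at 0.57, and without control replicate 3 hmox1a was at -0.28 (-0.28 to 0.38 without any single library). The cause was not tested. Without an exposed library 40 to 44 of 225 named results no longer passed, 15 and 22 of 213 were lost without control replicates 1 and 2, the block ended 8, and DESeq2 ended 0. With 3 libraries a side and wide controls, genes that did not pass are not shown to be level.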
